A study of Mus musculus with 10 samples.

Results

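The levels of 9 imprinted genes (Meg3, Rian, Dlk1, Grb10, Peg3, Ndn, Plagl1, Mest and Snrpn) were followed in embryonic mouse cortex cells after knockdown of Chd8, which codes for a CHD-family remodeler of chromatin. The 9 genes were taken by their symbols from 23235 gene symbols, and each was listed in both deposited FPKM tables. They were chosen with the knockdown-against-control values of these libraries known, so those values are given as a description and carry no test. Plasmids with GFP and either a Chd8 shRNA or a control shRNA had been electroporated into radial glia in utero at embryonic day 13, and GFP-positive cells were sorted at embryonic day 15 from cortices pooled over 3 to 5 embryos per replicate. The 10 libraries form 4 groups: 3 Chd8 knockdown and 3 control libraries of a new set (replicates 10, 11 and 12), and 2 Chd8 knockdown and 2 control libraries of a first set (replicates 1 and 2). The table of the new set is named for shRNA1 and that of the first set for shRNA2, so the shRNA, the batch and the table coincide, and their effects cannot be told apart. All groups were electroporated and sorted, the sources used here give neither strain nor sex of the embryos, and a sorted pool holds only the descendants of electroporated cells that still carried GFP.

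Imprinted genes are expressed from the copy of 1 parent. The copy of 1 parent is marked by DNA methylation set in the egg or the sperm at imprinting control regions. After fertilization the methylation is kept by the maintenance methyltransferase Dnmt1 with its partner Uhrf1 and by zinc finger proteins such as Zfp57 and Zfp445. Many imprinted genes act on fetal growth and on the brain. FPKM values sum both parental copies, so they do not show whether an imprint was kept or lost.

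The 9 genes lie in 6 regions. Meg3, Rian and Dlk1 share the Dlk1-Dio3 cluster on chromosome 12, Grb10 is on chromosome 11, Peg3 is on proximal chromosome 7, Ndn and Snrpn share the Prader-Willi cluster on chromosome 7, Plagl1 is on chromosome 10 and Mest is on chromosome 6. RefSeq promoter windows (build GRCm38.p6, 250 bases before to 50 bases after a start) matched 9 of 9 genes with 16 starts. The windows are shown for Meg3 and Grb10, the genes with the largest differences between knockdown and control, for Peg3, whose start faces that of Usp29, and for Nnat, the most abundant other imprinted gene. CpG dinucleotides, the sites at which the methylation sits, are in capitals.
Meg3, chr12:109540746-109541045, plus strand: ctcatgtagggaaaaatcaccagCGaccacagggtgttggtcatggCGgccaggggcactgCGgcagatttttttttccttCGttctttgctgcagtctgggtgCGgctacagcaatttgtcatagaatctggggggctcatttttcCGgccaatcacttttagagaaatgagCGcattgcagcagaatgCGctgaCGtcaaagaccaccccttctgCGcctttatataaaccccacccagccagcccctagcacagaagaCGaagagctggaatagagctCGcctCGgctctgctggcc
Grb10, chr11:12037371-12037670, minus strand: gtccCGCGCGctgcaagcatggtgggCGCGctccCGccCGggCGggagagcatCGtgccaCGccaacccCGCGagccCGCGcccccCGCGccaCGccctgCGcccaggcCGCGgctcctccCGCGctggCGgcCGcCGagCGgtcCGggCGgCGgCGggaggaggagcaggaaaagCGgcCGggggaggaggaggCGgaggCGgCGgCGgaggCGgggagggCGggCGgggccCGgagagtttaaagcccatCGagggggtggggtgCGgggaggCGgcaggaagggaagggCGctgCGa
Peg3, chr7:6730370-6730669, minus strand: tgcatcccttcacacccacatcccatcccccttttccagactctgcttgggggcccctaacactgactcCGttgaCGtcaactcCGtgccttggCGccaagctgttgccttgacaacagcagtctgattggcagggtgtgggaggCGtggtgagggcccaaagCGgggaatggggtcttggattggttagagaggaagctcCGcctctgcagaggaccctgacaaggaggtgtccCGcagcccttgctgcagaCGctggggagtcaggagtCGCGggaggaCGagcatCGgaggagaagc
Nnat, chr2:157559828-157560127, plus strand: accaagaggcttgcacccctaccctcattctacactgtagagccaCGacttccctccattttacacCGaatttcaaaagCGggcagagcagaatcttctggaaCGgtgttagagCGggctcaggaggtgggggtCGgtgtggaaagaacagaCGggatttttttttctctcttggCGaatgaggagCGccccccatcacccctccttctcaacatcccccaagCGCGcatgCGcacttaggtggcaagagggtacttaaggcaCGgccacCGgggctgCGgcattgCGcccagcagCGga
The Meg3 window held 13 CpG, the Peg3 window 13 and the Nnat window 17. The Grb10 window held 45, more than 98.1% of the 32851 RefSeq windows of this length, whose median was 7. Grb10 and Meg3 have 2 starts each, and the window shown is that of the first listed. The window of the other start held 9 CpG for Grb10 and 1 for Meg3. The 16 windows of the 9 genes held between 0 and 45 CpG. The hexamer TGCCGC is bound by the imprint keeper ZFP57 when its CpG is methylated. It was found on either strand in 6 of the 16 windows, against 11.6% of all windows. These were the windows shown for Grb10 and Meg3, that of Plagl1, 2 starts of Mest and 1 start of Snrpn. The palindrome GGGGCCCC, the core site of the zinc finger factor Plagl1, was found in 1 of the 16, that of Peg3, against 1.08% of all windows. AAGATGGC, a core site of the factor YY1, was found in 0 of the 16 on either strand, against 2.75% of all windows. None of the motifs is contained in another, and a match describes the letters only.

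The targeted gene was lower in every knockdown library. Chd8 was at 2.09, 1.84 and 1.92 FPKM in the new-set knockdown libraries, against 3.59, 3.30 and 4.02 FPKM in their controls (log2 fold change −0.65, SE 0.117, limma adjusted p = 0.0213). It was at 8.55 and 9.23 FPKM in the first-set knockdown libraries, against 12.4 and 13.8 FPKM in their controls (−0.51, SE 0.233, limma adjusted p = 0.152). The first-set value was −0.27 after rescaling each library by its median of ratios (limma adjusted p = 0.433). With the mean of the olfactory receptor genes subtracted it was −0.69 (limma adjusted p = 0.088). The mean of both sets was −0.58 (SE 0.103, limma adjusted p = 0.00285). The new-set call was lost without 5 of its 6 libraries (log2 fold change −0.70 to −0.59, highest adjusted p = 0.0829).

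Depth in reads is unknown. Relative to control replicate 10 the new-set libraries had 0.956 to 1.39 times the depth, and the first-set knockdown libraries had 0.527 and 0.528 times the depth of control replicate 1. In knockdown replicates 1 and 2 of the first set 80.9% and 78.9% of genes were above 0.1 FPKM, against 58.8% to 61.6% in the other 8 libraries. The 1118 olfactory receptor genes, which cortex does not use, averaged 1.39 and 0.993 FPKM in these 2 libraries, and 0.0033 to 0.0217 FPKM in the other 8. Their medians in these 2 libraries were lower, at 0.172 and 0 FPKM, and 55.1% and 49.0% of them were above 0.01 FPKM. These 2 libraries thus stand apart, and they are the whole knockdown group of the first set. No first-set comparison can be made without both. Rescaling each library by its median of ratios moved the first-set median log2 fold change of all genes from −0.15 to 0.09 and the share of genes past the threshold that were higher from 55.2% to 81.6%. Cortex markers were abundant in every library. The summed FPKM of the 9 cortex identity genes was 2062 to 2264 in new-set knockdown and 1620 to 1772 in new-set control libraries, and 1239 to 1442 in first-set knockdown and 2175 to 2376 in first-set control libraries. Of 8 genes of meninges and mesenchyme, cells in which several imprinted genes are high, none reached 1 FPKM in any library.

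**Figure D1:**
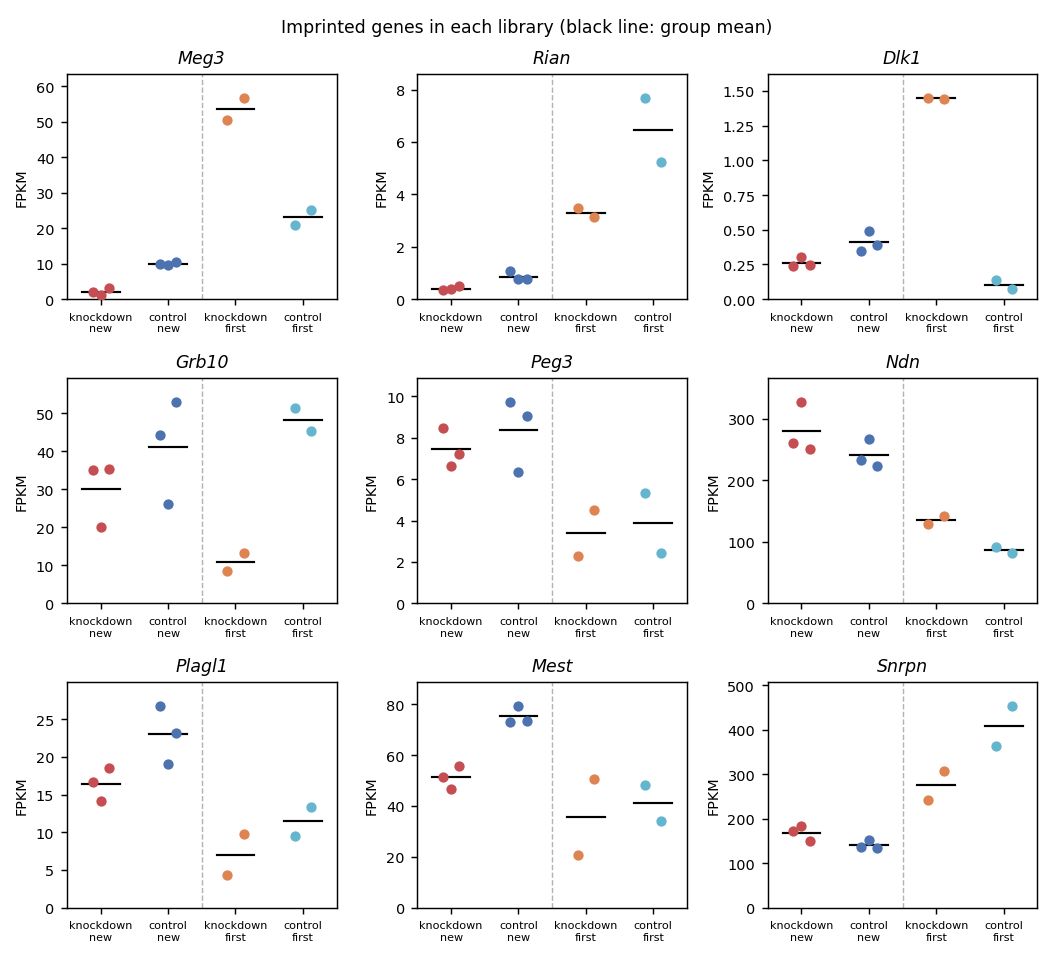
FPKM of the 9 imprinted genes in each library (linear axes from 0, 1 axis per gene, points are libraries, black lines are group means, n = 3 and 3 for the new set, 2 and 2 for the first set). Meg3 is lower in all 3 new-set knockdown libraries and higher in both first-set ones, and Grb10 is at 8.57 and 13.3 FPKM in the first-set knockdown libraries, against 51.3 and 45.2 in their controls.

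Meg3, a maternally expressed long noncoding RNA, moved in opposite directions in the sets. New-set levels were 2.12, 1.08 and 3.14 FPKM in knockdown libraries, against 9.84, 9.49 and 10.5 FPKM in control libraries. The groups did not overlap. The mean was 2.11 ± 1.03 FPKM in knockdown and 9.95 ± 0.530 FPKM in control libraries (SD, n = 3 each), so knockdown held 21.2% of the control level (log2 fold change of FPKM + 1 of −1.87, SE 0.226). The 3 knockdown libraries spread more than the controls, with a highest value 2.91 times the lowest, against 1.11 times among controls.

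First-set levels of Meg3 were 50.5 and 56.8 FPKM in knockdown libraries, against 21.0 and 25.3 FPKM in control libraries. Both knockdown libraries were above both controls, at 232% of the control mean (log2 fold change 1.18, SE 0.214). The olfactory receptor genes averaged 1.39 and 0.993 FPKM in these 2 knockdown libraries, and the part of this background in the Meg3 difference was not tested.

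Rian, a maternally expressed noncoding RNA that hosts small nucleolar RNAs and lies downstream of Meg3, did not follow it in the first set. It was at 3.47 and 3.13 FPKM in the first-set knockdown libraries, against 7.69 and 5.23 FPKM in controls, with both knockdown libraries below both controls (log2 fold change −0.78, SE 0.276). Its new-set levels were 0.341, 0.379 and 0.495 FPKM in knockdown libraries, against 1.07, 0.761 and 0.750 FPKM in controls. Every knockdown library was again below every control, but the gene's mean was under 1 FPKM and it was not fitted there (difference of log2 values −0.40). Meg3 and Rian are thought to be made as 1 long precursor. The ratio of Rian to Meg3 FPKM was 0.161, 0.351 and 0.158 in knockdown and 0.109, 0.0801 and 0.0712 in control libraries of the new set. It was 0.0686 and 0.0552 in knockdown and 0.367 and 0.207 in control libraries of the first set. The ratio was thus higher in all 3 new-set knockdown libraries and lower in both first-set ones.

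Dlk1, the paternally expressed Notch-like membrane protein of the same cluster, was near the lower limit. It was at 0.240, 0.305 and 0.246 FPKM in knockdown and 0.344, 0.492 and 0.393 FPKM in control libraries of the new set, with no overlap (difference of log2 values −0.16). Its first-set levels were 1.45 and 1.44 FPKM in knockdown and 0.135 and 0.0743 FPKM in control libraries (difference 1.15). The olfactory receptor genes averaged 1.39 and 0.993 FPKM in those 2 knockdown libraries, with medians of 0.172 and 0 FPKM, so Dlk1 was near their mean and above their median. The part of this background in the Dlk1 difference was not tested, and the gene was not fitted in either set.

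The rest of the cluster was low. The paternally expressed genes Rtl1, from a retrotransposon, and Dio3, a thyroid hormone deiodinase, and the maternally expressed noncoding Mirg were not tested in either set. Mirg was at 0.718 and 1.195 FPKM in knockdown and 0.509 and 0.723 FPKM in control libraries of the first set, and under 0.12 FPKM in all 6 new-set libraries. Begain, a synaptic scaffold gene at the cluster's edge, was at 3.64 ± 0.884 FPKM in knockdown and 3.41 ± 0.362 FPKM in control libraries of the new set (SD, n = 3 each, limma adjusted p = 0.82). Of 52 listed microRNA and small nucleolar RNA genes of the cluster, 51 were in the tables and 50 of these were at 0 in every library. The exception was Mir376b, at 20500 and 26750 FPKM in the first-set knockdown libraries and listed at 0 in the other 8. Its hairpin has 82 bases and FPKM divide by length, which raises the values of short genes. The number of fragments behind these values is unknown, and these libraries do not measure mature microRNAs. Its mature products are shown with those of its neighbours from RefSeq (GRCm38.p6), with the seed (bases 2 to 8) in capitals, because the seed sets which messenger RNAs are bound.
mmu-miR-376b-3p: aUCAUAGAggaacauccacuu
mmu-miR-376a-3p: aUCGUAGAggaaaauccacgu
mmu-miR-376b-5p: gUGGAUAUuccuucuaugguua
mmu-miR-376c-5p: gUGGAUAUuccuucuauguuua
The 5p products of Mir376b and Mir376c share a seed, whereas the 3p products of Mir376a and Mir376b have different seeds.

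Grb10 codes for an adaptor that binds the insulin and IGF1 receptors and restrains growth. In most tissues it is expressed from the maternal copy, and in neurons from the paternal copy. Its first-set levels were 8.57 and 13.3 FPKM in knockdown libraries, against 51.3 and 45.2 FPKM in control libraries. Both knockdown libraries were below both controls, at 22.6% of the control mean (log2 fold change −2.07, SE 0.261). Its new-set levels were 34.9, 20.0 and 35.4 FPKM in knockdown libraries, against 44.2, 26.2 and 52.9 FPKM in control libraries. The new-set groups overlapped (−0.42, SE 0.285, or 0.0738 with the replicate number as a block), and replicate 11 was the lowest of its group in both. Each new-set knockdown library was below the control of the same replicate number.

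Peg3, a paternally expressed zinc finger protein, showed no difference beyond the spread in either set. It was at 8.48, 6.63 and 7.24 FPKM in knockdown and 9.74, 6.37 and 9.07 FPKM in control libraries of the new set (−0.14, SE 0.163). It was at 2.26 and 4.50 FPKM in knockdown and 5.32 and 2.43 FPKM in control libraries of the first set (−0.14, SE 0.390). The groups overlapped in both sets.

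Ndn, the paternally expressed growth suppressor necdin of postmitotic neurons, was the most abundant of the 9 in the new set. It was at 129.5 and 141 FPKM in knockdown libraries of the first set, against 90.9 and 81.5 FPKM in controls, higher in both (log2 fold change 0.65, SE 0.195). It was at 260.0, 327.5 and 251 FPKM in knockdown and 234, 267 and 224 FPKM in control libraries of the new set (0.20, SE 0.125, or 0.0696 with the replicate number as a block). The groups overlapped, though each knockdown library was above the control of the same replicate number.

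Snrpn, its neighbour, codes for a neuronal component of the spliceosome and is also paternally expressed. It was at 242 and 307 FPKM in first-set knockdown libraries, against 364 and 453 FPKM in controls, lower in both (log2 fold change −0.57, SE 0.228). New-set levels were 172, 184 and 149 FPKM in knockdown and 137, 152 and 134 FPKM in control libraries (0.25, SE 0.102). The groups overlapped, and again each knockdown library was above the control of the same replicate number. Ndn and Snrpn, though in 1 cluster, thus differed in direction in the first set.

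Plagl1, a paternally expressed zinc finger factor that arrests the cell cycle, was at 16.6, 14.2 and 18.5 FPKM in knockdown and 26.7, 19.01 and 23.2 FPKM in control libraries of the new set. Every knockdown library was below every control (−0.46, SE 0.143). First-set levels were 4.27 and 9.80 FPKM in knockdown and 9.55 and 13.3 FPKM in control libraries (−0.70, SE 0.378), and the groups overlapped. Without knockdown replicate 1 the value was −0.19, and without knockdown replicate 2 it was −1.22.

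Mest, a paternally expressed enzyme of the alpha/beta hydrolase fold, was at 51.6, 46.7 and 55.7 FPKM in knockdown and 72.9, 79.3 and 73.6 FPKM in control libraries of the new set. Every knockdown library was below every control, at 68.2% of the control mean, and it had the smallest SE of the 7 genes fitted there (−0.55, SE 0.0891). First-set levels were 20.7 and 50.6 FPKM in knockdown and 48.3 and 33.9 FPKM in control libraries (−0.31, SE 0.407), where the knockdown libraries differed by 2.45 times and the groups overlapped. Without knockdown replicate 1 the value turned to 0.32.

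In the new set 5 of the 9 genes had knockdown libraries all below the controls (Meg3, Rian, Dlk1, Plagl1 and Mest), 0 had them all above, and 4 overlapped. Of all 11291 tested genes, 17.1% were below and 18.6% above in this way. In the first set 3 were above (Meg3, Dlk1 and Ndn), 3 below (Rian, Grb10 and Snrpn) and 3 overlapped, while 27.4% of all 12461 tested genes were above and 40.4% below. With limma's adjusted p under 0.05, 2 of 7 fitted genes were past the threshold in the new set, both lower (Meg3 and Mest), where 8.99% of all genes were (3.84% higher and 5.15% lower). With the replicate number as a block 5 of these 7 were, and 2452 of all genes. Of 8 fitted in the first set 2 were, Meg3 higher and Grb10 lower, where 23.8% of all genes were (13.2% higher and 10.7% lower). For the mean of both sets 3 of 7 were, Ndn higher and Grb10 and Plagl1 lower, where 29.9% of all genes were (9.37% higher and 20.5% lower). For the new-set minus the first-set fold change 3 of 7 were, Grb10 and Snrpn above 0 and Meg3 below 0, where 32.5% of all genes were (22.5% above and 9.98% below). The genes were chosen on these contrasts, so nothing is read from these counts.

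**Figure D2:**
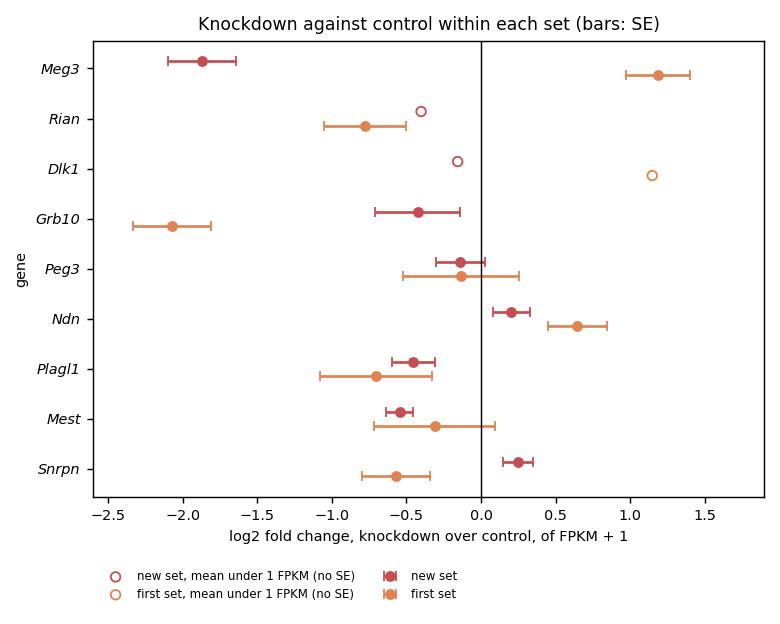
Log2 fold change of FPKM + 1, knockdown over control, for the 9 genes for the new set (3 against 3 libraries) and the first set (2 against 2). Filled points carry the SE of the fit, and open points had a mean under 1 FPKM and no fit. Meg3 lies at −1.87 and 1.18, Grb10 at −0.42 and −2.07.

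The order of the levels differed between the tables, which were normalized separately. In new-set controls Ndn was highest at 241.5 ± 22.5 FPKM, then Snrpn at 141 ± 9.67, Mest at 75.3 ± 3.52, Grb10 at 41.1 ± 13.7, Plagl1 at 23.0 ± 3.86, Meg3 at 9.95 ± 0.530, Peg3 at 8.39 ± 1.78, Rian at 0.860 ± 0.181 and Dlk1 at 0.410 ± 0.0758 (SD, n = 3). Among neighbours in this order the libraries of Grb10 overlapped with those of Plagl1, and those of Meg3 with those of Peg3. In new-set knockdown libraries Meg3 stood below Peg3, with no overlap. In first-set controls Snrpn led at 408 ± 62.9 FPKM, before Ndn at 86.2 ± 6.58, Grb10 at 48.2 ± 4.30, Mest at 41.1 ± 10.2, Meg3 at 23.1 ± 3.04, Plagl1 at 11.4 ± 2.66, Rian at 6.46 ± 1.74 and Peg3 at 3.87 ± 2.04 (n = 2). There Grb10 overlapped with Mest, and Rian with Peg3. In first-set knockdown libraries Meg3, at 53.7 ± 4.41 FPKM, stood next after Snrpn and Ndn and overlapped with Mest.

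Cell type markers moved in the same comparisons, and their part in the values of the 9 genes was not tested. The summed FPKM of the 8 ganglionic eminence genes was 2.36 to 3.73 in knockdown and 6.85 to 11.01 in control libraries of the new set, with 6 of the 8 lower in every knockdown library and none at 0 throughout. Of 9 radial glia genes 6 fell there, with summed FPKM of 978 to 1526 in knockdown and 1177 to 1528 in control libraries. Of the 6 neuron genes listed there 2 rose, with summed FPKM of 2872 to 3632 in knockdown and 1991 to 2436 in control libraries. The 7 erythroid genes summed to 23.2 to 114 FPKM in knockdown and 137 to 264 FPKM in control libraries of the new set. The neuron genes summed to 2955 to 3166 FPKM in knockdown and 4140 to 4729 FPKM in control libraries of the first set, where 2 of them fell, together with 5 of 9 cortex identity and 2 of 9 radial glia genes. The 6 microglia genes summed to 9.91 to 21.4 FPKM in knockdown and 1.39 to 5.21 FPKM in controls of the first set, where 3 rose. Of the 8 meninges and mesenchyme genes 4 were above both controls in both first-set knockdown libraries. These are the libraries with the raised olfactory receptor mean, and the part of that background in the first-set marker sums was not tested. The 4 choroid plexus genes summed to 0.0399 to 43.7 FPKM in knockdown and 0.146 to 0.300 FPKM in control libraries of the new set, where Ttr in knockdown replicate 10 made up 42.9 FPKM, and to 3.56 to 5.79 FPKM in knockdown and 0.152 to 1.07 FPKM in control libraries of the first set, where 1 rose. In such sorted bulk samples fewer cells of a type and less RNA per cell cannot be told apart.

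Genes next to the 9 are not among the chosen ones and were tested, though they too were listed with earlier results of these data known. Usp29, a paternally expressed ubiquitin protease gene, starts 164 bases from Peg3 and is read in the other direction (starts at chr7:6730583 and chr7:6730419 in GRCm38.p6). It rose to 3.21, 3.29 and 2.96 FPKM in new-set knockdown libraries, against 2.04, 1.77 and 2.001 FPKM in controls (log2 fold change 0.50, SE 0.112, limma adjusted p = 0.036). First-set levels were 3.82 and 2.85 FPKM in knockdown and 1.99 and 2.47 FPKM in control libraries (0.42, SE 0.260, limma adjusted p = 0.266), and over both sets it rose (0.46, SE 0.114, limma adjusted p = 0.0123). The new-set call was lost without 5 of the 6 libraries (highest adjusted p = 0.128), and the call over both sets was lost with the olfactory receptor mean subtracted (0.153). The ratio of Usp29 to Peg3 FPKM was 0.378, 0.496 and 0.409 in knockdown and 0.209, 0.278 and 0.221 in control libraries of the new set, while in the first set it overlapped, at 1.69 and 0.633 in knockdown and 0.375 and 1.02 in control libraries.

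In the Prader-Willi cluster Peg12, a paternally expressed gene of the Frat family, fell in the first set to 18.2 and 32.2 FPKM in knockdown libraries, against 76.5 and 80.3 FPKM in controls (log2 fold change −1.65, SE 0.286, limma adjusted p = 0.00797). New-set levels were 2.93, 2.05 and 3.51 FPKM in knockdown and 3.88, 3.90 and 4.799 FPKM in control libraries (−0.45, SE 0.165, limma adjusted p = 0.114, or 0.044 with the replicate number as a block). Over both sets it fell (−1.05, SE 0.163, limma adjusted p = 0.00162). Without control replicate 2 the first-set call was lost (adjusted p = 0.0631).

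Ube3a, the ubiquitin ligase gene that neurons express from the maternal copy, fell in the first set to 7.82 and 9.15 FPKM in knockdown libraries, against 15.9 and 16.9 FPKM in controls (−0.88, limma adjusted p = 0.0347). New-set levels were 47.0 ± 3.70 FPKM in knockdown and 40.9 ± 2.59 FPKM in control libraries (SD, n = 3 each, 0.20, limma adjusted p = 0.186). Mkrn3, a paternally expressed ring finger gene, was at 7.25, 7.23 and 6.65 FPKM in knockdown and 10.5, 10.3 and 8.31 FPKM in control libraries of the new set (−0.41, limma adjusted p = 0.0655, or 0.0309 with the block). Snurf, which is made from the same messenger RNA as Snrpn so that their reads cannot be told apart, was at 7.33, 8.26 and 9.24 FPKM in knockdown and 4.27, 7.25 and 5.56 FPKM in control libraries of the new set (0.49, limma adjusted p = 0.105, or 0.044 with the block). Magel2 and Atp10a were under the filter in both sets.

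Copg2, whose end overlaps that of Mest on the other strand, fell in the first set to 7.27 and 9.05 FPKM in knockdown libraries, against 18.7 and 13.8 FPKM in controls (log2 fold change −0.90, SE 0.262, limma adjusted p = 0.0461). New-set levels were 27.8, 39.7 and 25.2 FPKM in knockdown and 28.3, 22.5 and 19.3 FPKM in control libraries (0.38, SE 0.188, limma adjusted p = 0.215), and the fold changes of the sets differed (new minus first 1.28, SE 0.311, limma adjusted p = 0.0105). The sources used here do not say whether reads were counted by strand, so reads of Copg2 and Mest in the overlap cannot be told apart. Ddc and Cobl beside Grb10, Zim1 beside Peg3 and Klf14 beside Mest stayed under the filter in both sets.

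A list of 63 other imprinted genes in the tables, these neighbours included, gave the wider picture. Of 30 tested for the new set 1 rose (Usp29) and 1 fell (Blcap), or 6.67% where 8.99% of all genes passed, and 28 did not pass, with a median log2 fold change of 0.01 beside 0.02 over all genes. With the replicate number as a block 7 of the 30 passed, where 2452 of all 11291 genes did. Of 34 tested in the first set 4 rose (Asb4, Kcnq1ot1, Airn and Nap1l5), 6 fell (Peg12, Ube3a, Copg2, Sgce, Nap1l4 and Inpp5f) and 24 did not pass. The 10 are 29.4% where 23.8% of all genes passed, with a median of −0.26 beside −0.15 over all genes. Of 29 tested over both sets 4 rose (Usp29, Nnat, Nap1l5 and Trappc9) and 6 fell (Peg12, Ube3a, Sgce, Nap1l4, Blcap and Inpp5f), or 34.5% where 29.9% of all genes passed, with a median of −0.18 beside −0.11. These calls are on the mean of the fold changes of the sets, not on each set. The new-set fold change had the opposite sign for Ube3a (0.20), Inpp5f (0.15), Nap1l4 (0.014) and Nap1l5 (−0.046). The Ube3a and Nap1l4 calls over both sets were lost with median-of-ratios scaling (adjusted p = 0.0737 and 0.0715 by limma), and that of Nap1l4 also without 2 of the 10 libraries. Of these 29, 5 were above 0 and 10 below 0 in both sets, and the other 14 differed in sign.

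**Figure D3:**
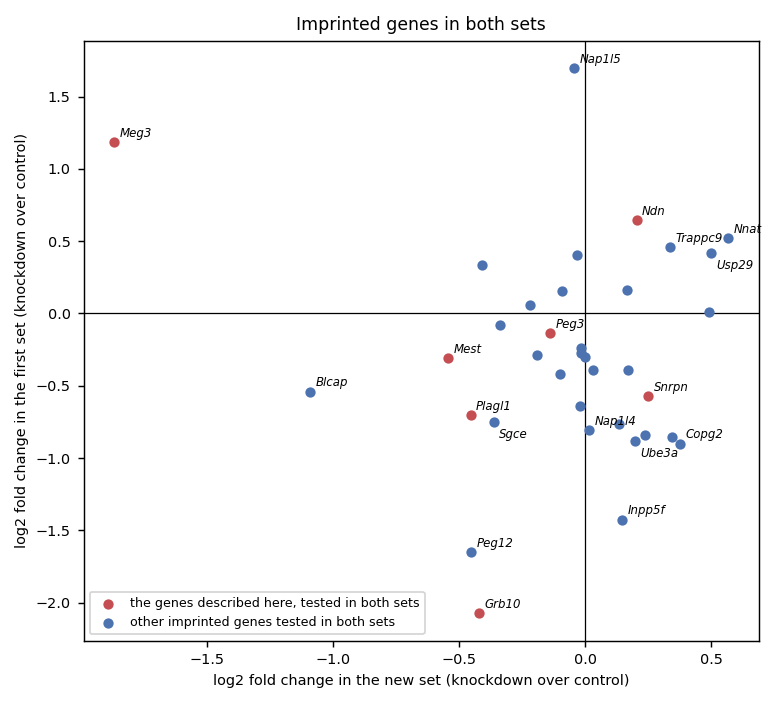
Log2 fold change, knockdown over control, in the first set (vertical) against the new set (horizontal) for the imprinted genes tested in both, with the 7 genes described here that were tested in both in red and 29 others in blue. Names are given for those 7 and for others that passed the threshold in either set or over both. Meg3 stands alone at the upper left, and Blcap is the lowest of the others in the new set (−1.09).

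Blcap and Nnat form a nested pair. Nnat (neuronatin), a paternally expressed membrane protein of developing neurons, lies inside an intron of Blcap, a gene that the brain expresses mainly from the maternal copy. Blcap fell in the new set to 30.1, 26.8 and 25.9 FPKM in knockdown libraries, against 61.0, 67.8 and 51.7 FPKM in controls (log2 fold change −1.09, SE 0.113, limma adjusted p = 0.007). Its first-set levels were 40.2 and 51.8 FPKM in knockdown and 83.3 and 53.7 FPKM in control libraries (−0.54, SE 0.270, limma adjusted p = 0.181), and over both sets it fell (−0.82, SE 0.135, limma adjusted p = 0.00207). The new-set call held without each library (highest adjusted p = 0.0345).

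Nnat was at 2821, 3347 and 2621 FPKM in knockdown and 1865, 2211 and 1850 FPKM in control libraries of the new set (log2 fold change 0.57, SE 0.170, limma adjusted p = 0.0724, or 0.0347 with the replicate block). First-set levels were 876 and 686.5 FPKM in knockdown and 683 and 428 FPKM in control libraries (0.52, SE 0.283, limma adjusted p = 0.212). Over both sets it rose (0.54, SE 0.154, limma adjusted p = 0.0221), a call lost without knockdown replicate 11 of the new set, knockdown replicate 1 or control replicate 2 of the first set (highest adjusted p = 0.0976). The ratio of Nnat to Blcap FPKM was 93.8, 125 and 101 in knockdown and 30.6, 32.6 and 35.7 in control libraries of the new set, and 21.8 and 13.3 in knockdown and 8.19 and 7.98 in control libraries of the first set. Every knockdown ratio was above every control ratio of its set.

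Kcnq1ot1 and Airn are long, mostly unspliced noncoding RNAs of the paternal copy, antisense to Kcnq1 and Igf2r, that silence their clusters. Kcnq1ot1 rose in the first set to 28.1 and 18.6 FPKM in knockdown libraries, against 1.59 and 1.37 FPKM in controls (log2 fold change 3.27, SE 0.285, limma adjusted p = 0.00103). Airn rose to 6.97 and 7.82 FPKM in knockdown libraries, against 0.561 and 0.542 FPKM in controls (2.43, SE 0.241, limma adjusted p = 0.00139). Without each library in turn the log2 fold change was 2.98 to 3.56 for Kcnq1ot1 and 2.36 to 2.51 for Airn. Both calls held with the olfactory receptor mean subtracted. That background was uneven, with means of 1.39 and 0.993 FPKM and medians of 0.172 and 0 FPKM, so 1 mean does not measure it gene by gene. Its part in the rise of these 2 genes was not tested. Neither was tested in the new set, with Kcnq1ot1 at 0.230 to 0.329 FPKM in knockdown and 0.316 to 0.435 FPKM in control libraries. Igf2r, the growth factor receptor that Airn silences on the paternal copy, was at 3.503 and 5.00 FPKM in knockdown and 6.504 and 9.43 FPKM in control libraries of the first set (−0.77, limma adjusted p = 0.0975; chosen after its values were seen), and without strand its reads cannot be told apart from those of Airn where they overlap.

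Asb4, an ankyrin repeat gene of the Peg10 cluster, rose in the first set to 4.70 and 4.98 FPKM in knockdown libraries, against 1.27 and 0.464 FPKM in controls (1.68, limma adjusted p = 0.00776). Nap1l5, a paternally expressed nucleosome assembly gene inside an intron of Herc3, rose to 30.8 and 17.0 FPKM in knockdown libraries, against 6.93 and 5.85 FPKM in controls (1.70, limma adjusted p = 0.0108). The ratio of Nap1l5 to Herc3 FPKM was 4.85 and 3.63 in knockdown and 0.665 and 0.546 in control libraries of the first set, and overlapped in the new set. In the new set Nap1l5 was at 18.6 ± 3.35 FPKM in knockdown and 19.3 ± 3.67 FPKM in control libraries (SD, n = 3 each). The phosphatase gene Inpp5f fell in the first set to 96.3 and 162 FPKM in knockdown libraries, against 348.5 and 328 FPKM in controls (−1.43, limma adjusted p = 0.0119). Nap1l4 fell to 147 and 178.5 FPKM in knockdown libraries, against 333 and 243 FPKM in controls (−0.81, limma adjusted p = 0.0461). Sgce, a paternally expressed sarcoglycan, fell to 18.9 and 16.9 FPKM in knockdown libraries, against 30.4 and 31.1 FPKM in controls (−0.75, limma adjusted p = 0.0422), and in the new set was at 12.9 ± 1.56 FPKM in knockdown and 16.8 ± 0.751 FPKM in control libraries (SD, n = 3 each, limma adjusted p = 0.0696, or 0.0331 with the block). Trappc9, a vesicle tethering gene, rose over both sets (0.40, SE 0.121, limma adjusted p = 0.0293), a call lost without 6 of the 10 libraries. Of the 16 first-set calls given here with their values, those of the maintenance factors and the insulin pathway included, 14 were lost without at least 1 library, the exceptions being Kcnq1ot1 and Airn. After median-of-ratios rescaling 8 of the 16 were lost (Copg2, Ube3a, Sgce, Nap1l4, Uhrf1, Kdm1b, Irs1 and Nedd4), and 12 with no filter on low values.

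**Figure D4:**
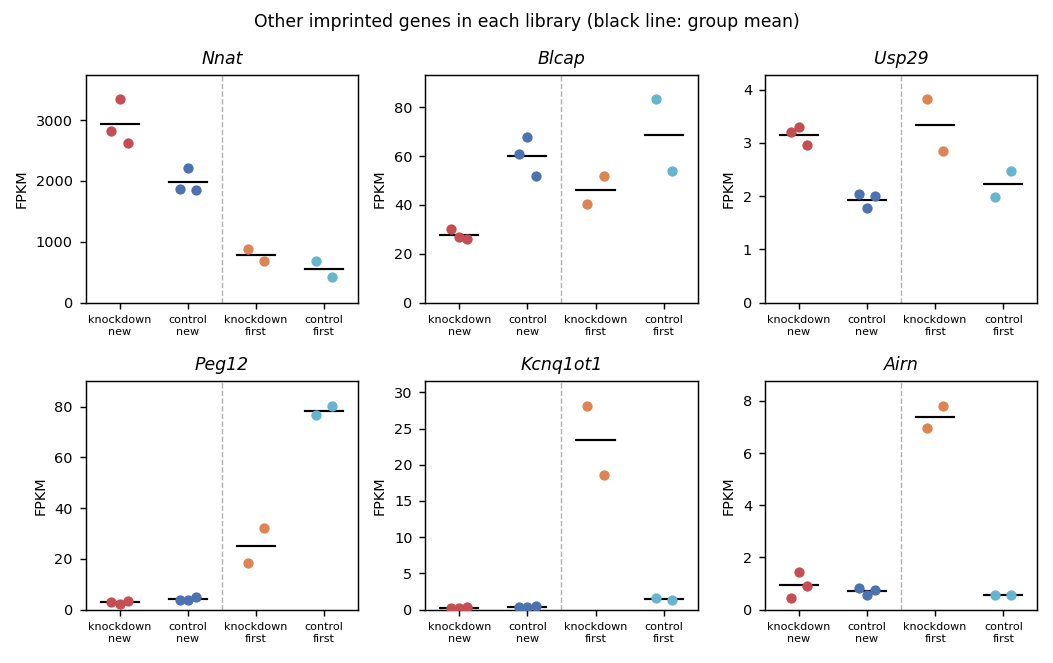
FPKM of 6 other imprinted genes in each library (linear axes from 0, points are libraries, black lines are group means). Blcap is lower in every new-set knockdown library, Nnat and Usp29 are higher in every knockdown library of their set, and Kcnq1ot1 and Airn stand out in the 2 first-set knockdown libraries.

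A list of 22 genes, called maintenance factors here though not all of them keep imprints, was tested next. Of 18 tested over both sets 11 fell, 0 rose and 7 did not pass (61.1%, where 20.5% of all genes fell). The median log2 fold change was −0.31 beside −0.11 over all genes. The 11 were Dnmt1, Dnmt3a, Uhrf1, Zfp445, Ctcf, Tet2, Tet3, Arid4a, Kdm1b, Setdb1 and Yy1. With median-of-ratios rescaling 4 passed, against 11 without it. Fewer of all genes passed too after rescaling, but their drop was proportionally smaller. The excess of these factors over all genes thus depended on the scaling and is not shown to hold after rescaling. Of 19 tested in the new set 1 fell (5.26%, where 8.99% of all genes passed) and 18 did not pass. Of 20 tested in the first set 4 fell (Dnmt1, Uhrf1, Kdm1b and the heterochromatin protein gene Cbx5), 2 rose (Ctcfl and Dppa3, both genes of germ cells) and 14 did not pass, so that 30.0% passed, against 23.8% of all genes. Ctcfl and Dppa3 still passed with the olfactory receptor mean subtracted (limma adjusted p = 0.0281 and 0.0235), but the part of the uneven background in their rise was not tested.

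Dnmt3a, a methyltransferase that sets new methylation in germ cells and in the brain, fell in the new set to 8.45, 6.71 and 7.98 FPKM in knockdown libraries, against 13.1, 12.8 and 14.4 FPKM in controls (−0.73, SE 0.112, limma adjusted p = 0.0167, and 0.0626 without knockdown replicate 11). First-set levels were 11.2 and 16.4 FPKM in knockdown and 22.5 and 23.9 FPKM in control libraries (−0.73, SE 0.252, limma adjusted p = 0.0746). Over both sets it fell (−0.73, SE 0.119, limma adjusted p = 0.00192), also without each library.

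Dnmt1 fell in the first set to 13.3 and 17.3 FPKM in knockdown libraries, against 39.4 and 30.7 FPKM in controls (−1.14, SE 0.245, limma adjusted p = 0.0177). New-set levels were 33.4 ± 2.95 FPKM in knockdown and 37.9 ± 5.82 FPKM in control libraries (SD, n = 3 each, limma adjusted p = 0.387), and the sets differed (new minus first 0.98, limma adjusted p = 0.0117). Uhrf1 fell in the first set to 16.2 and 22.2 FPKM in knockdown libraries, against 44.7 and 35.5 FPKM in controls (−1.03, limma adjusted p = 0.0261). Kdm1b, a histone demethylase needed for imprints in the egg, fell to 5.51 and 4.804 FPKM in knockdown libraries, against 11.6 and 9.50 FPKM in controls (−0.91, limma adjusted p = 0.0405). Its new-set fold change was 0.13 (limma adjusted p = 0.382), though it is counted among the factors that fell over both sets. Zfp445 fell over both sets (−0.54, SE 0.131, limma adjusted p = 0.0106), and so did Yy1, a factor that binds the Peg3 control region (−0.42, SE 0.123, limma adjusted p = 0.0264, lost without 6 of 10 libraries and after median-of-ratios rescaling).

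Grb10 acts on insulin and IGF signalling, and 32 genes of that pathway were in the tables. Of 27 tested in the new set 2 rose (Pik3cb and Pik3r1), 2 fell (Akt2 and Igfbp4) and 23 did not pass, so that 14.8% passed, against 8.99% of all genes. The new-set call of Pik3r1 was lost without any 1 of the 6 libraries (highest limma adjusted p = 0.13). Of 27 tested in the first set 2 rose (Igf1 and Foxo1), 2 fell (Irs1 and Nedd4) and 23 did not pass, again 14.8%, against 23.8% of all genes. With the olfactory receptor mean subtracted neither Igf1 (limma adjusted p = 0.0759) nor Foxo1 passed. Of 26 tested over both sets 2 rose and 4 fell, or 23.1% where 29.9% of all genes passed, and 20 did not pass, with a median log2 fold change of −0.12 beside −0.11 over all genes.

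Nedd4, a ubiquitin ligase that binds Grb10, fell in the first set to 76.8 and 114 FPKM in knockdown libraries, against 181 and 184.5 FPKM in controls (−0.96, SE 0.238, limma adjusted p = 0.0287). Irs1, the docking protein of both receptors, fell to 2.47 and 3.51 FPKM in knockdown libraries, against 7.04 and 6.95 FPKM in controls (−1.02, SE 0.263, limma adjusted p = 0.0326), a call lost without any 1 of the 4 libraries. Igfbp4, a secreted binding protein of IGFs, fell in the new set to 26.7, 22.8 and 22.4 FPKM in knockdown libraries, against 41.7, 44.4 and 36.6 FPKM in controls (−0.75, SE 0.105, limma adjusted p = 0.0131, and 0.0593 without knockdown replicate 11). Pik3r1, a regulatory subunit of PI3 kinase, rose over both sets (0.55, SE 0.122, limma adjusted p = 0.00706), and Foxo1, a factor that insulin signalling keeps out of the nucleus, rose in the first set (1.03, limma adjusted p = 0.0225, and 0.284 with the olfactory receptor mean subtracted). The receptors, chosen after their values were seen, did not pass: Igf1r was at 4.23 ± 0.576 FPKM in knockdown and 4.29 ± 0.712 FPKM in control libraries of the new set, and Insr at 6.09 ± 0.957 FPKM in knockdown and 5.58 ± 0.724 FPKM in control libraries (SD, n = 3 each).

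Likeness of pattern was described with Pearson's r over the 10 libraries, on log2(FPKM + 1) centred on each set, among 10827 genes tested in both tables. The libraries share groups and batches, so r here describes the pattern only. Among the genes most like Meg3 were Plekha5 (r = 0.978), BC005561 (0.975), Ttf1 (0.966) and Ankle1 (0.954), each lower in the knockdown mean of the new set and higher in that of the first set. Their fold changes were smaller than those of Meg3; that of BC005561, for example, was −0.88 (new set) and 0.64 (first set). Those most like Grb10 were Rbpj (0.986), the effector of Notch signalling, then 2510009E07Rik (0.984), Irs1 (0.982), E2f4 (0.981) and Asb1 (0.980). Irs1 is also a member of the insulin pathway list above.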

How the data were processed

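RNA sequencing measured 10 libraries of sorted GFP-positive cortex cells. Per the labels' protocols, RNeasy Plus columns gave the RNA and a low-input method of Clontech the libraries. TopHat2, Bowtie, Cufflinks 2.0.0, Cuffdiff and the build mm9 are listed, per the submitters' processing notes. The sources used here do not give the gene annotation or the strand setting. The authors deposited FPKM values (fragments scaled to transcript length and to all mapped fragments), 1 column per library, in 2 separate tables of 23235 symbols, with no count of reads, so depth is unknown and only relative depth was read from the smallest values.

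Values were transformed to log2(FPKM + 1), which understates changes of low genes, and genes averaging 1 FPKM or more were fitted with limma 3.58.1 in R 4.3.3 (trend, two-sided). The residual degrees of freedom were 4 for the new set, 2 for the first set and 6 for a joined fit of both. P-values were adjusted over all genes tested (Benjamini-Hochberg), with a threshold of 0.05. "Rose" and "fell" mean past it. The joined fit gave the mean of both fold changes, called "over both sets" here, and their difference. A call on the mean does not say that each set moved that way. The fit was run on simulated libraries with independent noise. These lacked the raised background of the first set and the shared deviations of same-numbered libraries, so they do not show how the fit handles them. Replicates are separate pools of embryos, per the design text.

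The 9 genes and all lists were chosen with earlier results of these data known. Named genes were the 9, Chd8, the neighbours of the 9, other imprinted genes past the threshold in any fit (at most 14), the 6 maintenance factors and the 6 insulin pathway genes with the smallest p over both sets, and the 5 genes most like Meg3 and Grb10. Results of some genes under this rule are left out here. Other genes named were chosen after their values were seen. Promoter and microRNA sequences are RefSeq's (GRCm38.p6). No coordinate of the files was used.

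Same-numbered libraries of the new set deviated together across genes (r = 0.122, 0.242 and 0.193, against −0.162 to −0.0133 for other pairs). In the first set r was −0.0285. The numbers are not stated to pair libraries, so the main fits leave them out, and a fit with the number as a block is an alternative. In the new set the block changed the SE of Grb10 from 0.285 to 0.0738, and 2452 genes passed, against 1015. Alternatives were another pseudocount (0.1), no filter or at least 5 FPKM, median-of-ratios rescaling, subtraction of the olfactory receptor mean, no trend, the replicate block and leaving out each library.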

Additional observations from a re-analysis of the deposited data

Results flagged for a closer look

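Meg3 was lower in every new-set knockdown library and higher in every first-set one (log2 fold change −1.87 and 1.18). Dlk1 showed the same pattern at low levels (differences of −0.16 and 1.15). The difference between the sets is given with no p for Meg3 and was not tested for Dlk1, since the genes were chosen on these values.

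For 12 of the genes that the naming rule gives outside the 9 the fold changes of the sets differed in the joined limma fit. Of all 10827 genes 32.5% differed in this way (22.5% above 0 and 9.98% below). The rule chose genes by results of these same data, so nothing is read from the count of 12. The new-minus-first difference was positive for Inpp5f (1.57), Copg2 (1.28), Peg12 (1.198), Ube3a (1.07), Kdm1b (1.03), Dnmt1 (0.98), Nedd4 (0.84), Nap1l4 (0.82) and Uhrf1 (0.77). It was negative for Nap1l5 (−1.74), Foxo1 (−1.18) and Mkrn3 (−0.74), with a highest adjusted p of 0.0401 among the 12. The median difference over all genes was 0.23, and −0.01 after median-of-ratios rescaling, under which 8 of the 12 still passed. The exceptions were Nap1l4, Nedd4, Peg12 and Uhrf1. Without each library in turn 9 of the 12 passed throughout, and Mkrn3, Peg12 and Uhrf1 did not. With the olfactory receptor mean subtracted Foxo1 and Mkrn3 no longer passed.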

How the results depend on the processing

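In the new set 1015 genes passed, 470 with no filter and 2452 with the replicate block, and 88 to 1883 when 1 library was left out. In the first set 2971 passed, 1602 at 5 FPKM or more and 713 to 1247 with 1 library left out, and each of the 10 libraries moved its count by more than 1.5 times. Of the 2971, 55.2% were higher in knockdown, against 81.6% after median-of-ratios rescaling, which moved the median of all genes from −0.15 to 0.09, and 30.6% with the olfactory receptor mean subtracted. With no filter 5917 genes passed over both sets, against 3238, and 6345 for the difference, against 3520.

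Other imprinted genes numbered 1 in the new set with no filter or at 5 FPKM, 7 with the block and 1 to 4 with 1 library left out, 6 in the first set after rescaling and 2 to 5 with 1 left out, and 23 over both sets with no filter. Maintenance factors numbered 0 to 2 in the new set with 1 library left out, and in the first set 2 with no filter, 3 after rescaling and 1 to 2 with 1 left out. Over both sets they numbered 4 after rescaling and 5 to 11 with 1 left out. Insulin pathway genes numbered 2 in the new set with no filter and 0 to 4 with 1 left out, and in the first set 1 with no filter or at 5 FPKM and 0 to 3 with 1 left out.

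Meg3 was at −2.30 in the new set with a pseudocount of 0.1 and at 1.44 in the first set after rescaling. After rescaling first-set Ndn was at 0.90 and Snrpn at −0.31, and Rian was at −1.24 with the background subtracted. Chd8 in the new set ran from −0.70 to −0.59 with 1 library left out, with calls lost as stated. Without 1 library first-set Plagl1 ran from −1.22 to −0.19 and new-set Grb10 from −0.71 to −0.16, both nearest 0 without the knockdown library that was lowest. First-set Peg3 turned in direction (0.062 after rescaling, −0.58 to 0.30 with 1 left out), and so did first-set Mest (0.32 without knockdown replicate 1, −0.94 to 0.32). The other fitted values of the 9 genes kept their direction in every alternative. Among the tested genes direction turned for values that had not passed: Mkrn3 over both sets (0.065 after rescaling, −0.13 to 0.058 with 1 left out), Nap1l4 in the new set (−0.0056 after rescaling, −0.037 to 0.045), Snurf in the first set (−0.11 with background subtracted, −0.11 to 0.13), Usp29 in the first set (−0.032 with background subtracted), and with 1 left out Begain (−0.090 to 0.15) and Nap1l5 (−0.19 to 0.10) in the new set and Ipw in the first set (−1.46 to 0.43). The causes were not tested. With no filter 12 of the 16 first-set calls given with values were lost, those of Copg2, Dnmt1, Inpp5f, Irs1, Kdm1b, Nap1l4, Nap1l5, Nedd4, Peg12, Sgce, Ube3a and Uhrf1. With the replicate block the new-set calls of Mkrn3, Nnat, Peg12, Sgce and Snurf were gained and none of the named ones lost. In the first set, where same-numbered libraries did not deviate together, the calls of Copg2, Nap1l4 and Sgce were lost. Over both sets that of Yy1 was lost (adjusted p = 0.0522) and for the difference that of Mkrn3 (0.0531), and that of Irs1 was gained. Among genes named after their values were seen, Ipw passed in the new set and Igf2r for the difference (0.0256, against 0.0725).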

Other observations

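Ipw, a paternally expressed noncoding RNA of the Prader-Willi cluster named after its values were seen, was at 1.86, 1.59 and 2.55 FPKM in knockdown and 6.99, 3.00 and 3.63 FPKM in control libraries of the new set (log2 fold change −0.83, SE 0.255, limma adjusted p = 0.0764, or 0.0433 with the replicate block). H19, a maternally expressed noncoding RNA abundant in many embryonic tissues, was at 0.396, 0.549 and 0.292 FPKM in knockdown and 0.866, 1.14 and 0.808 FPKM in control libraries of the new set, and at 2.80 and 3.89 FPKM in knockdown and 2.31 and 1.99 FPKM in control libraries of the first set (limma adjusted p = 0.233). Its neighbour Igf2, the growth factor of the fetus, stayed under 0.35 FPKM in every library.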
